A study of Mus musculus with 20 samples.

Results

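The growth hormone, IGF and insulin axis was followed through 10 genes: GHR, SOCS2, IGF1, IGFALS, IGFBP1, IGFBP2, IGFBP4, INSR, IRS1 and IRS2. A gene was a member when its symbol, ignoring case, was listed in both the human and the mouse expression table. All 10 were found in both, among 60607 human and 55335 mouse gene rows that share 16767 symbols. Human genes are written in capitals (IGF1) and mouse genes with 1 capital letter (Igf1).

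Growth hormone from the pituitary binds its receptor GHR on hepatocytes, and the kinase JAK2 and the transcription factor STAT5 then raise IGF1, IGFALS and SOCS2. IGF1 leaves the liver and circulates bound to IGF-binding proteins and to IGFALS, the acid-labile subunit, while SOCS2 feeds back on the receptor. Insulin signals in the same cells through INSR and the adaptors IRS1 and IRS2, and it represses IGFBP1 and IRS2, which the FOXO transcription factors switch on during fasting. The growth hormone receptor of primates responds poorly to rodent growth hormone, which is relevant to human hepatocytes in a mouse host. HuR, encoded by ELAVL1, binds AU-rich and U-rich stretches of mRNAs and affects their stability and translation.

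The study asked whether knocking down HuR has the same effect on human and on mouse liver genes. It compared 4 humanized mice given an adenovirus with a human HuR shRNA (HuR KD) with 4 humanized mice given a LacZ control virus, and 6 WT mice given a mouse HuR shRNA virus with 6 WT mice given the LacZ virus. Every mouse received 2000000000 pfu of virus by vein, and total RNA was sequenced from the liver 7 days later, after a 4 h fast. The WT mice were C57BL/6 males, bought at 8 weeks of age and acclimatized for 10 to 14 days. The humanized mice were TK-NOG, severely immune-deficient animals whose hepatocytes carry a viral thymidine kinase under the mouse albumin promoter. Ganciclovir at 25 mg/kg, given at 8 to 9 weeks of age, killed those cells, and cryopreserved primary human hepatocytes were put in through the spleen. Serum human albumin was checked 8 to 12 weeks after transplantation. Only the hepatocytes were human, the other liver cells stayed those of the host, and the hepatocytes came from few donors, whose exact number is not given in the sources used here. Host strain, immune state, age, shRNA sequence and alignment index all differed between the sets, and their effects cannot be separated from that of species.

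Values are TPM, read counts scaled by gene length so that the genes of a table sum to 1000000 in each library. Whole reads recovered from the TPM steps numbered 2061949 to 13962113 per humanized library (without 1 mitochondrial rRNA gene that could not be solved) and 12960896 to 44669579 in 11 of the 12 WT libraries. WT LacZ 2 held 1424162. Humanized HuR KD 4 and LacZ 2 stood apart from the other 6 humanized livers. They were the deepest libraries, and mitochondrial rRNA took 49.1% of their TPM, against 27.2 to 36.0% in the others. After the group means were removed, their profiles correlated with each other (r = 0.53 across the genes tested), and the humanized fold changes of the members, lists and markers are therefore also given without them. The knockdown itself was seen in all livers: ELAVL1 was 2.37 to 4.05 TPM in humanized HuR KD livers and 4.77 to 6.17 TPM with LacZ, and Elavl1 was 3.72 to 5.62 TPM in WT HuR KD livers and 8.58 to 10.7 TPM with LacZ. In bulk liver RNA, fewer cells of a type and less RNA per cell cannot be told apart.

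In humanized mouse livers, HuR KD went with higher IGF1, and IGF1 was the member of the axis that passed the study's threshold, an unadjusted p under 0.05. The receptor GHR and the carrier subunit IGFALS lay lower with HuR KD without passing it. The test was limma on log2(TPM + 1), restricted to genes averaging 1 TPM or more, a filter that 9 of the 10 members passed. Genes past the threshold are named as called, with the Benjamini-Hochberg adjusted p beside them. Of these 9 members, 1 was called, higher, against 11.5% of the 12738 human genes tested, 3.60% higher and 7.87% lower. Their median log2 fold change was −0.22, against −0.05 over all genes tested, with 3 members higher and 6 lower. None passed an adjusted p of 0.05, which 0.212% of all genes did.

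IGF1 is the hormone that the liver makes in response to growth hormone. It was 22.9, 17.6, 22.6 and 7.26 TPM in humanized HuR KD livers 1 to 4. In humanized LacZ livers 1 to 4 it was 7.0, 3.05, 3.13 and 4.76 TPM. The groups did not overlap, although HuR KD 4, which is 1 of the livers that stand apart, lay just above the highest control. No overlap between groups was found for 7.16% of all human genes tested, and IGF1 was the only such member. The mean rose 3.92-fold, from 4.48 ± 1.85 to 17.6 ± 7.30 TPM (SD, n = 4 each), on 63 to 850 reads per liver. The log2 fold change was 1.70 (SE 0.36, called, limma adjusted p = 0.10). The two-sided exact permutation test gave p = 0.0286, the smallest that 4 livers against 4 allow. Without the livers that stand apart the log2 fold change was 1.93 (limma adjusted p = 0.0224, which 1.34% of genes passed at 0.05 in that fit). The means were then 21.03 ± 2.97 and 4.96 ± 1.94 TPM (SD, n = 3 each), and between the 2 livers left out HuR KD was 2.38-fold higher. IGF1 stayed called when any 1 liver was left out, with log2 fold changes between 1.54 and 2.06.

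GHR, the receptor at the head of the axis, was 58.1, 70.7, 82.8 and 87.8 TPM in humanized HuR KD livers 1 to 4 and 121, 60.4, 123 and 94.9 TPM in LacZ livers 1 to 4. LacZ 2, which stands apart, was the lowest control and lay among the HuR KD livers. The log2 fold change was −0.37 (SE 0.24, limma adjusted p = 0.610). Without the livers that stand apart the groups did not overlap, at 70.6 ± 12.4 TPM with HuR KD and 113 ± 15.6 TPM with LacZ (SD, n = 3 each), and the log2 fold change was −0.68 (called, limma adjusted p = 0.134).

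IGFALS, which stabilises circulating IGF1, moved in the same way. It was 10.04, 17.8, 19.9 and 16.9 TPM in HuR KD livers 1 to 4 and 24.3, 16.1, 26.5 and 21.5 TPM in LacZ livers 1 to 4, with LacZ 2 again the lowest control. The log2 fold change was −0.45 (SE 0.23, limma adjusted p = 0.510), and −0.62 (called, limma adjusted p = 0.292) without the livers that stand apart. In the 6 other livers, then, IGF1 was higher with HuR KD while GHR and IGFALS were lower. SOCS2, the feedback inhibitor, was close to the detection limit. It held 3, 0, 3 and 13 reads in HuR KD livers 1 to 4 and 4, 7, 4 and 1 reads in LacZ livers 1 to 4, that is at most 0.297 TPM, and was not tested. In HuR KD 2, a count of 0 allows up to 0.224 TPM (3 reads, counting error only).

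The IGF-binding proteins did not separate the groups. IGFBP1, the insulin-repressed carrier, was 55.8, 53.4, 38.8 and 457 TPM in humanized HuR KD livers 1 to 4 and 24.0, 381, 80.0 and 53.8 TPM in LacZ livers 1 to 4. The 2 high values are those of the livers that stand apart, whose mean was 8.23 times that of the other 6. The difference between the groups was 0.10 on the log2 scale (SE 0.94, limma adjusted p = 0.983). IGFBP2 was 22.3 to 48.8 TPM with HuR KD and 25.6 to 78.1 TPM with LacZ (log2 fold change −0.22, SE 0.35). IGFBP4 was 61.3 to 112 TPM with HuR KD and 54.5 to 115 TPM with LacZ (log2 fold change 0.04, SE 0.27). With those 2 livers left out the log2 fold changes were 0.05 for IGFBP1, −0.22 for IGFBP2 and 0.07 for IGFBP4, and none was called.

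Among the insulin receptor and its substrates, INSR varied least, at 20.4 to 25.2 TPM with HuR KD and 17.5 to 27.3 TPM with LacZ (log2 fold change −0.06, SE 0.17). IRS1, an adaptor of the receptor, was 6.89, 6.52, 6.55 and 13.9 TPM in HuR KD livers 1 to 4 and 7.96, 17.6, 12.0 and 11 TPM in LacZ livers 1 to 4. HuR KD livers 1 to 3 lay below every control, and HuR KD 4 lay among them (log2 fold change −0.49, SE 0.28, limma adjusted p = 0.552). Without the livers that stand apart IRS1 fell from 10.3 ± 2.12 to 6.66 ± 0.206 TPM (SD, n = 3 each), a log2 fold change of −0.55 (called, limma adjusted p = 0.203). IRS2, the FOXO-driven adaptor, was 1.57, 1.84, 1.77 and 9.36 TPM in HuR KD livers 1 to 4 and 1.45, 8.44, 2.95 and 3.98 TPM in LacZ livers 1 to 4 (log2 fold change −0.28, SE 0.52). As for IGFBP1, the livers that stand apart held the highest values. Without them the log2 fold change was −0.42 for IRS2 and −0.03 for INSR, and neither was called.

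Without those 2 livers 4 of the 9 members tested were called, IGF1 higher and GHR, IGFALS and IRS1 lower, against 15.7% of 12826 genes in the same fit. With a term for them in the model 2 were called, IGF1 and IRS1, against 15.1% of genes, and IGF1 there passed after adjustment (limma adjusted p = 0.0304), as 0.997% of genes did.

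**Figure D1:**
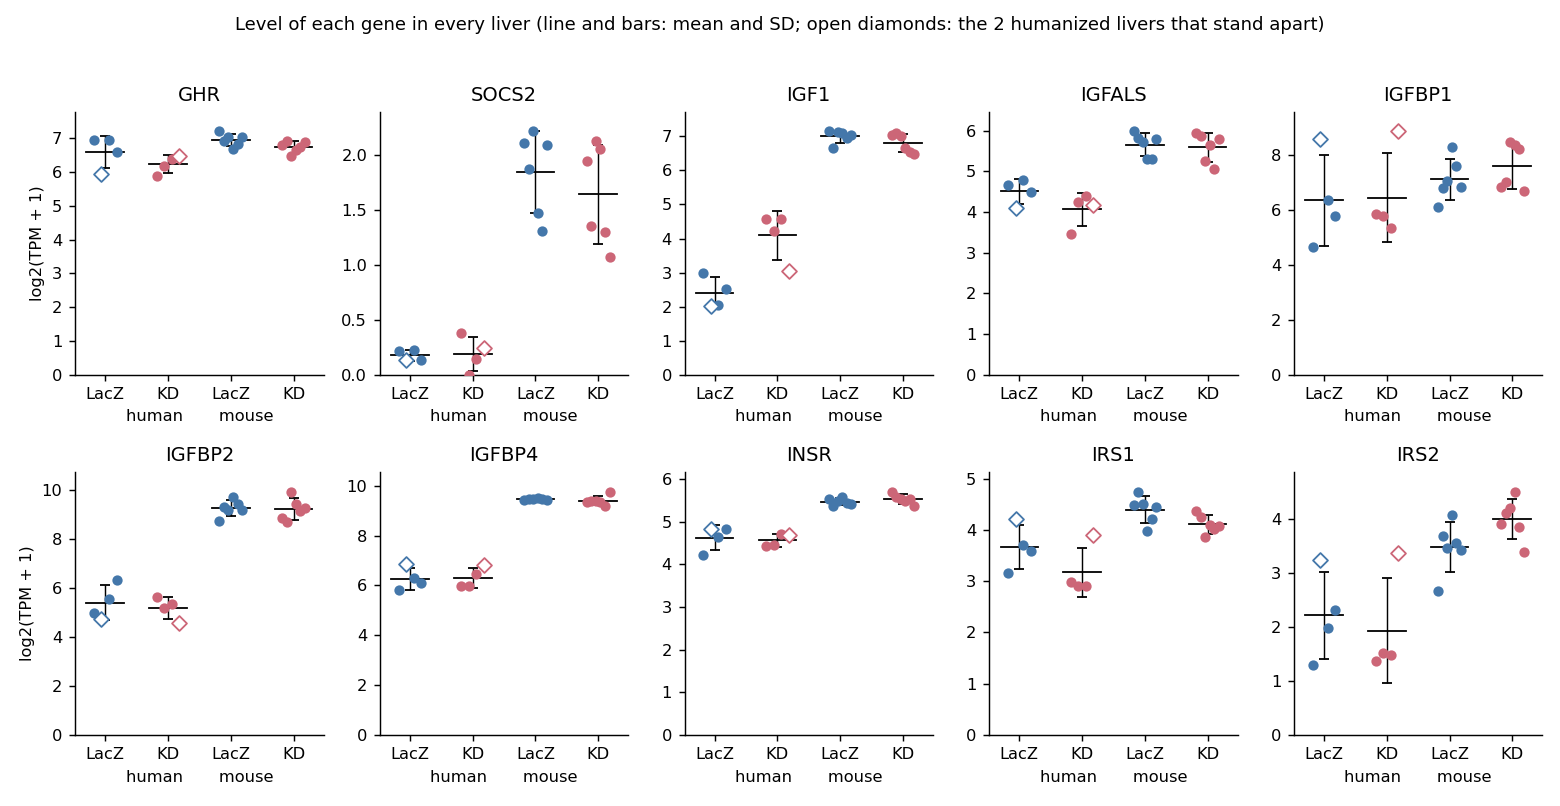
Level of each gene in every liver as log2(TPM + 1), with human genes in 4 LacZ and 4 HuR KD humanized livers and mouse genes in 6 LacZ and 6 HuR KD WT livers; lines and bars are the mean and SD, and open diamonds the 2 humanized livers that stand apart. Human IGF1 with HuR KD lies above all 4 humanized LacZ livers, the open diamonds are the highest human values for IGFBP1 and IRS2, and human IGF1 and SOCS2 lie below their mouse counterparts.

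In WT mouse livers, Irs2 was called higher and Irs1 lower with HuR KD, both adaptors of the insulin receptor, and Igf1 did not rise. These were 2 of 10 members called. That share is near the 16.0% called among the 15090 mouse genes tested, 9.09% higher and 6.94% lower. The median log2 fold change of the members was −0.06, against 0.03 over all genes tested, and none passed an adjusted p of 0.05, which 0.888% of genes did. For none of the 10 members were the HuR KD and LacZ livers free of overlap, which held for 2.49% of genes.

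Irs2 was 9.45 to 21.6 TPM (median 15.1) in the 6 HuR KD livers and 5.30 to 15.8 TPM (median 10.4) in the 6 LacZ livers. In HuR KD 3 livers lay above every control, and the other 3 lay among the controls or just below most of them. The means were 15.3 ± 4.11 and 10.5 ± 3.39 TPM (SD, n = 6 each), a log2 fold change of 0.52 (SE 0.22, limma adjusted p = 0.268), and the two-sided exact permutation test gave p = 0.0519. Irs1 was 13.5 to 19.8 TPM (median 16.1) with HuR KD and 14.8 to 25.96 TPM (median 21.1) with LacZ. It fell by 0.28 on the log2 scale (SE 0.12, limma adjusted p = 0.279, exact permutation p = 0.0628). Both calls were fragile. Irs1 lost its call when any 1 of 8 of the 12 livers was left out and Irs2 when any 1 of 6 was, with log2 fold changes of −0.37 to −0.21 for Irs1 and 0.36 to 0.64 for Irs2.

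Igf1 was 88.2 to 135 TPM (median 114) with HuR KD and 99.3 to 141 TPM (median 134) with LacZ. The lowest control was the shallow LacZ 2. The log2 fold change was −0.20 (SE 0.13, limma adjusted p = 0.496), and −0.27 (called, limma adjusted p = 0.262) without LacZ 2. Ghr was 87.0 to 121 TPM (median 108) with HuR KD and 103 to 146 TPM (median 125) with LacZ (log2 fold change −0.21, SE 0.10, limma adjusted p = 0.318). Igfals, at 32.3 to 60.4 TPM against 38.4 to 62.3 TPM, and Socs2, at 1.10 to 3.38 TPM against 1.47 to 3.65 TPM, overlapped over most of their range (log2 fold changes −0.06, SE 0.17, and −0.20, SE 0.22).

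The mouse carriers were abundant and differed mostly from liver to liver. Igfbp1 was 102 to 353 TPM (median 211) with HuR KD and 67.0 to 310 TPM (median 120) with LacZ (log2 fold change 0.49, SE 0.41, limma adjusted p = 0.615). Igfbp2 was 403 to 964 TPM with HuR KD and 422 to 824 TPM with LacZ (log2 fold change −0.04, SE 0.20). Igfbp4 was the steadiest gene of the axis in controls, at 691 to 726 TPM, a coefficient of variation of 1.82%. With HuR KD, no control was as low as 5 of the livers, at 587 to 668 TPM, and HuR KD 6 at 866 TPM exceeded every control, so that the mean changed by −0.06 on the log2 scale (SE 0.08, limma adjusted p = 0.763). Without HuR KD 6 the log2 fold change of Igfbp4 was −0.14 (called, limma adjusted p = 0.147). Insr was 40.4 to 51.2 TPM with HuR KD and 40.1 to 47.2 TPM with LacZ (log2 fold change 0.06, SE 0.06).

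**Figure D2:**
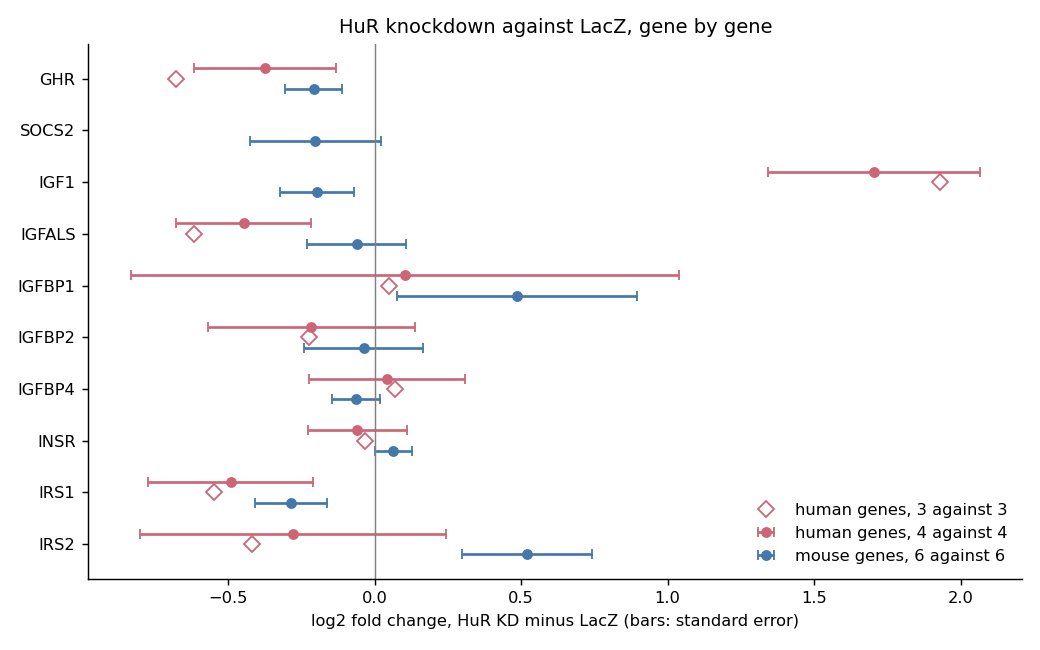
Log2 fold change of each gene, HuR KD minus LacZ, with its standard error, for human genes (red, 4 against 4 livers; open diamonds, 3 against 3 without the livers that stand apart) and mouse genes (blue, 6 against 6). Human IGF1 at 1.70 stands apart from the other human values, −0.49 to 0.10, and from mouse Igf1 at −0.20; SOCS2 has no human value because it was not tested.

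Whether HuR KD acted differently on the human and the mouse gene was tested as the difference of the log2 fold changes in a joint limma fit over 8206 symbols. IGF1 was 1 of 9 members past an unadjusted p of 0.05, against 19.7% of the pairs. The human change exceeded the mouse change by 1.90 (SE 0.34, limma adjusted p = 0.00249), and 5.01% of the pairs passed after adjustment. The joint fit assumed the same spread between livers in both sets. Fitted apart, the SE of IGF1 was 0.36 in humanized livers and 0.13 in WT livers. The joint SE lies below the first of these, so p-values and shares of pairs from the joint fit may be too favourable. Leaving out any 1 liver kept this difference between 1.74 and 2.25. IRS2, at −0.28 in human and 0.52 in mouse, differed by −0.80 (SE 0.51, limma adjusted p = 0.424). Without the livers that stand apart the difference of IRS2 was −0.94 (called, limma adjusted p = 0.0963) and that of GHR −0.47 (called, limma adjusted p = 0.116), in a fit that called 26.02% of the pairs. The other 6 members differed by −0.39 to 0.10, and none was called.

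Mouse livers of the same group varied widely in Igfbp1, and other members of the axis varied with it. Of 45 pairs of members, 8 were correlated across the 12 WT livers at an adjusted p under 0.05 by Pearson's r, and 5 of these also by Spearman's rho. Igfbp1 was high where Ghr was low (r = −0.88, permutation p = 1.8e-04, adjusted p = 0.0081; rho = −0.81, adjusted p = 0.0388). The value was −0.83 within HuR KD and −0.95 within LacZ livers, and −0.81 without the 2 livers farthest from the median of Ghr. Igfbp1 was also high where Igfals was low (r = −0.85, adjusted p = 0.0159; rho = −0.82, adjusted p = 0.0388; −0.80 without the 2 farthest livers in Igfals) and where Irs2 was high (r = 0.78, adjusted p = 0.0226; rho = 0.79, adjusted p = 0.0388; 0.66 without the 2 farthest livers in Igfbp1). Igfbp1 against Irs1 gave r = −0.77 (adjusted p = 0.0327) and rho = −0.67 (adjusted p = 0.102). Igfbp1 against Igfbp2 gave r = 0.73 (adjusted p = 0.0416) and rho = 0.62 (adjusted p = 0.154). The p-values come from 100000 permutations of the livers. Ghr followed Irs1 (r = 0.76, rho = 0.80) and ran against Irs2 (r = −0.83, rho = −0.77). Ghr against Igfbp2 gave r = −0.73, but −0.40 without the 2 livers farthest in Ghr, so that the pooled value rests on them, while it was −0.87 within HuR KD and −0.98 within LacZ livers. The livers with the highest Igfbp1 were HuR KD 3, 4 and 5 at 353, 323 and 294 TPM and LacZ 4 at 310 TPM. In humanized livers the livers that stand apart hold the high IGFBP1 and IRS2 values, so no correlation is given there.

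**Figure D3:**
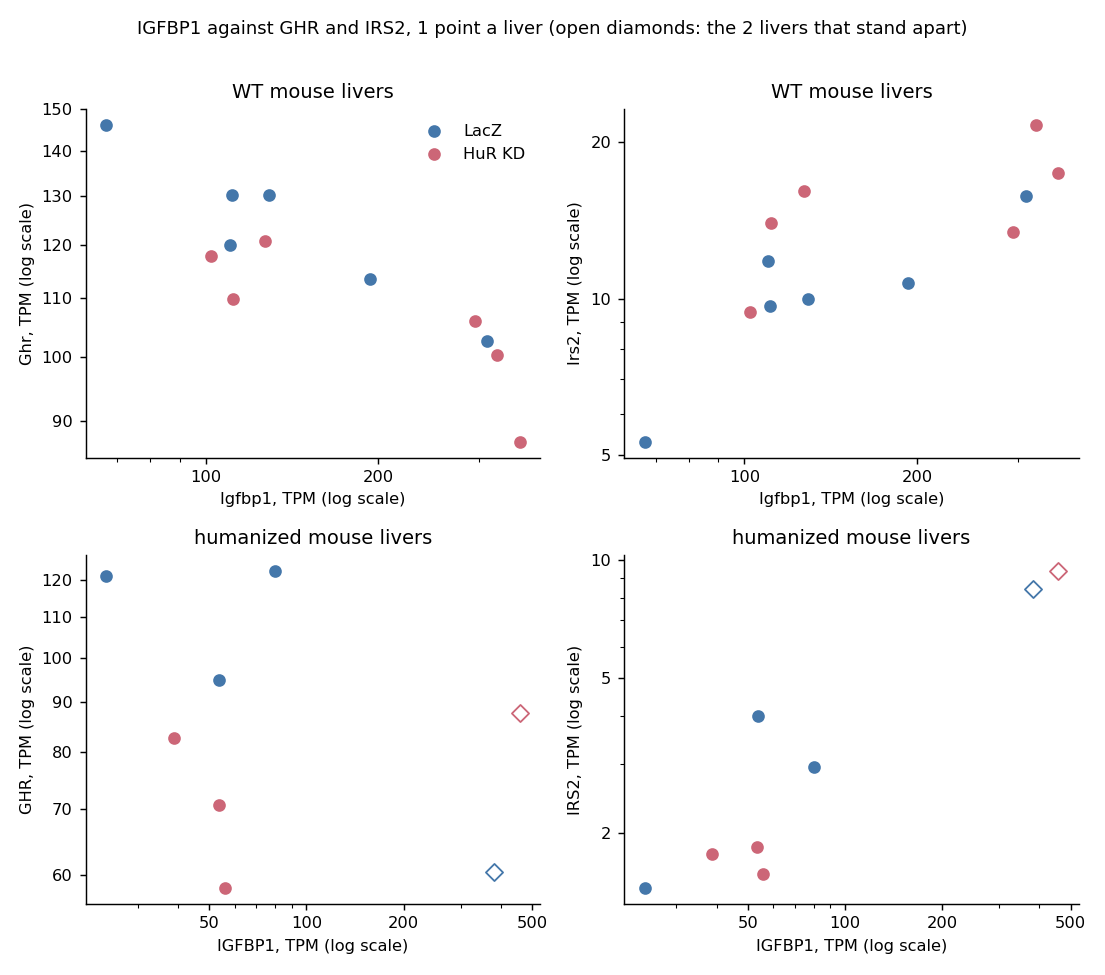
TPM of IGFBP1 against GHR (left) and IRS2 (right) on log axes, 1 point per liver, for 12 WT livers (top) and 8 humanized livers (bottom); blue is LacZ, red HuR KD and open diamonds the 2 livers that stand apart. In WT livers Igfbp1 rises as Ghr falls and Irs2 rises in both groups, and in humanized livers the open diamonds hold both the highest IGFBP1, 381 and 457 TPM, and the highest IRS2, 8.44 and 9.36 TPM.

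The mouse promoters of Igfbp1, Irs1, Irs2 and Igf1 are shown because insulin acts on Igfbp1 through a short promoter element that FOXO factors bind. The sequences are 300 bases each, 250 before to 50 after the start of transcription, from RefSeq (GRCm38.p6). Igf1 is read from chr10:87860861-87861160 on the plus strand, Igfbp1 from chr11:7197537-7197836 on the plus strand, Irs2 from chr8:11008880-11009179 on the minus strand and Irs1 from chr1:82291390-82291689 on the minus strand. Capitals mark CAAAACA, the core of the insulin response element, or its reverse complement TGTTTTG.
Igf1: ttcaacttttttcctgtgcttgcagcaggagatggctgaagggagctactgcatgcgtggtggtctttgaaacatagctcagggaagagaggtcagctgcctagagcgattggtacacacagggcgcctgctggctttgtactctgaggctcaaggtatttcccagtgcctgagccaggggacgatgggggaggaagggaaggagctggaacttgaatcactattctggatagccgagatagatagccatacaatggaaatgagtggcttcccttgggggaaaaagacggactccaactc
Igfbp1: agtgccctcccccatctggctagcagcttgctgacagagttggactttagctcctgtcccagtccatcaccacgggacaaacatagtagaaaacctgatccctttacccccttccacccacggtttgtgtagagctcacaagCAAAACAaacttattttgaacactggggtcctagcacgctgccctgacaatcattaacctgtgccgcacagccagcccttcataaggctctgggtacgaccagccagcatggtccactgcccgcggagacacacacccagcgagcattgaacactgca
Irs2: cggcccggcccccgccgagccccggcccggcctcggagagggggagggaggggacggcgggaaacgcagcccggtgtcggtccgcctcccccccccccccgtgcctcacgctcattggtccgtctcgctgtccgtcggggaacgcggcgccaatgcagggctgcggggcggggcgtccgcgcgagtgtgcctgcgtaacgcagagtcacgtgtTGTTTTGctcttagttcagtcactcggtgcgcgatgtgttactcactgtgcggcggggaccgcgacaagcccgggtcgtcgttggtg
Irs1: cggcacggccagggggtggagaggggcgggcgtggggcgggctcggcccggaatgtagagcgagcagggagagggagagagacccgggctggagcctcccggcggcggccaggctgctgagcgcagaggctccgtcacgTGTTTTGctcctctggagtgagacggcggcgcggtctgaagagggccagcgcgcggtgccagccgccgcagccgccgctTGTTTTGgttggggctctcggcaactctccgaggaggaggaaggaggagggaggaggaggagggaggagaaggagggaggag

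Of the 10 members 8 had a promoter entry, 12 entries in all, while Insr and Socs2 had none. CAAAACA, searched on both strands, stood 108 bases before the RefSeq start of Igfbp1 (first base of the match). It stood 37 bases before the RefSeq start of Irs2 and at 2 places before that of Irs1. It was in 3 of the 8 members and in 6.28% of all 32851 promoters of this length. GTAAACA, the forkhead consensus, was in 3.65% of promoters and among the members only in an entry of Igfals. TTCNNNGAA, the letters that STAT factors bind, was in 8.30% of promoters and among the members in 2 of the 3 entries of Igfals. All 3 motifs were searched on both strands. CAAAACA and GTAAACA share their last letters, AAACA, but cannot match at the same bases. Igf1 held none of the 3 in this window. The part of these motifs in the changes with HuR KD was not tested.

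AU-rich letters of the kind HuR binds were counted in the longest annotated 3′ UTR of each mouse gene (GENCODE M21, GRCm38). ATTTA was in the UTR of 9 of the 10 members, all but Igfals, and in 69.7% of the 10983 mouse genes tested that have a UTR of at least 50 bases. The nonamer TTATTTATT, which contains ATTTA, was in none of the members and in 7.78% of those genes. Igfbp1 held 4 ATTTA in 529 bases, or 7.56 per kb, above 98.2% of the genes. Igf1 held 18 in 6308 bases, or 2.85 per kb, and its UTR was longer than 98.1% of the genes. The median gene held 1.33 per kb. Of the called mouse members, Irs2 at 3.01 per kb lay above that median and Irs1 at 1.33 per kb lay at it. The part of these letters in the changes with HuR KD was not tested.

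Igf1 (ENSMUSG00000020053.18) lies on chromosome 10 from 87858265 to 87937042 on the plus strand of GRCm38, and Socs2 (ENSMUSG00000020027.18) on the same chromosome from 95385362 to 95417180 on the minus strand. Igfbp1 (ENSMUSG00000020429.7) and Igfbp4 (ENSMUSG00000017493.12) lie on the plus strand of chromosome 11, from 7197782 to 7202546 and from 99041244 to 99054392. Both adaptor genes are read from the minus strand: Irs1 (ENSMUSG00000055980.2) spans 82233101 to 82291416 on chromosome 1, and Irs2 (ENSMUSG00000038894.7) spans 10984681 to 11008458 on chromosome 8. All are annotated as protein coding. The ends of these genes need not be the RefSeq starts used for the promoters. For Irs2 the whole promoter window lies upstream of the gene as given here, and for Igf1 it lies inside the gene.

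Control levels were set side by side as a description, without a test, because the tables were normalized separately. In the 4 humanized LacZ livers the order by mean TPM was IGFBP1 (135), GHR (99.8), IGFBP4 (78.4), IGFBP2 (44.9), INSR (24.1), IGFALS (22.1), IRS1 (12.1), IGF1 (4.48), IRS2 (4.21) and SOCS2 (0.130). Only IRS1 and IGF1, and IRS2 and SOCS2, were neighbours whose livers did not overlap. In the 6 WT LacZ livers the order was Igfbp4 (705), Igfbp2 (613), Igfbp1 (153), Igf1 (128), Ghr (124), Igfals (50.2), Insr (43.4), Irs1 (20.4), Irs2 (10.5) and Socs2 (2.69). There the gaps without overlap lay between Igfbp2 and Igfbp1, Ghr and Igfals, Insr and Irs1, and Irs2 and Socs2.

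The largest distances between the species were in the hormone and in the feedback gene of the growth hormone arm. Igf1 in mouse was 28.6 times human IGF1 in TPM, and it stood above 95.6% of expressed protein-coding genes, where human IGF1 stood above 58.5%. Mouse Socs2 was 20.8 times human SOCS2, which rests on 16 reads over the 4 humanized LacZ livers. Igfbp2 and Igfbp4 were 13.7 and 8.99 times the human level. Igfals, which growth hormone also raises, was 2.27 times human IGFALS. By contrast GHR was 99.8 ± 29.2 TPM in human and 124 ± 15.2 TPM in mouse (SD, n = 4 and n = 6), a ratio of 1.24, and IGFBP1 gave a ratio of 1.14, with overlapping livers in both.

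For 6 of the 10 members every humanized control lay below every WT control: IGF1, IGFALS, IGFBP2, IGFBP4, INSR and SOCS2. Protein-coding genes took only 28.9 to 37.8% of the TPM in humanized livers and 75.6 to 77.6% in WT livers. Rescaled to protein-coding genes alone, 4 stayed below (IGF1, IGFBP2, IGFBP4 and SOCS2), with mouse to human ratios of 12.4 for IGF1 and 8.89 for SOCS2, and human GHR lay above mouse Ghr in every control. Relative to albumin (ALB) 5 stayed below, those 4 and IGFALS, whose mouse to human ratio over protein-coding genes was 0.98 with overlapping livers. With HuR KD, human IGF1 at 17.6 TPM still lay below every WT liver.

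**Figure D4:**
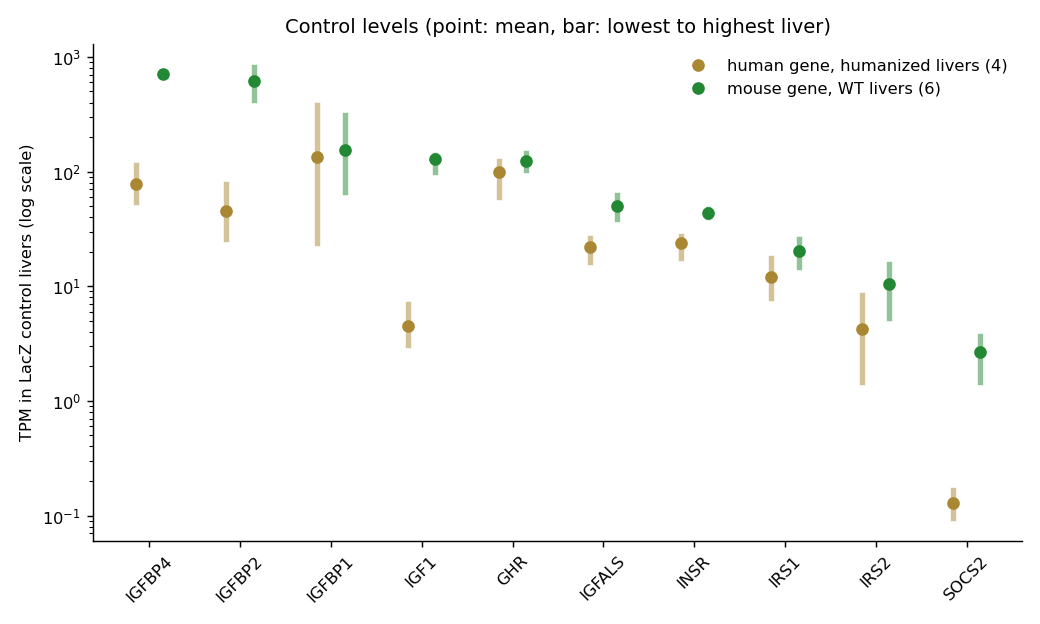
TPM of each gene in LacZ control livers on a log axis, for the human gene in 4 humanized livers and the mouse gene in 6 WT livers; points are means and bars run from the lowest to the highest liver. IGF1, IGFBP2, IGFBP4 and SOCS2 lie well apart between the species, and GHR and IGFBP1 overlap.

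The remaining genes of the axis were taken from 7 lists of 105 symbols in all, members included. In humanized livers 5 of 81 tested genes of these lists were called higher and 8 lower, with a median log2 fold change of −0.06 against −0.05 over all genes. That is 16.0% of the list genes, beside 11.5% of all human genes. In WT livers 10 of 92 were called higher and 7 lower, with a median of 0.04 against 0.03, or 18.5% beside 16.0% of all mouse genes. Both shares lie near the background, and no list gene passed an adjusted p of 0.05 in either set. When the livers that stand apart were left out, 3 of 80 human list genes were called higher and 17 lower, 25% beside 15.7% of all genes, with a median of −0.12 against −0.08. In that fit 4 passed an adjusted p of 0.05, SCD, IGF1, TRIB3 and ELOVL6, the last also named after its values were seen. Negative regulators of insulin signalling held 4 of 13 human genes called, all lower, among them CEACAM1 and TRIB3, and 4 of 14 mouse genes called, Ceacam1 and Phlpp1 higher and Ide and Trib1 lower. Phlpp1 and Trib1 here, and JAK2, GSK3A, Igf2r and Elovl3 below, are outside the rule for named genes and were named after their values were seen, to complete small counts.

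CEACAM1, which promotes the clearance of insulin by the liver, was 3.26 to 4.24 TPM with HuR KD and 5.09 to 7.02 TPM with LacZ in humanized livers, without overlap (log2 fold change −0.58, SE 0.15, limma adjusted p = 0.153). In WT livers Ceacam1 was 39.8 to 49.0 TPM with HuR KD and 32.6 to 40.2 TPM with LacZ, with a narrow overlap (log2 fold change 0.34, SE 0.07, limma adjusted p = 0.0512). The changes were opposite and differed by −0.92 (SE 0.14, limma adjusted p = 7.96e-04). CCND1, a cyclin that insulin induces, also moved in opposite directions, by 0.58 in human and −0.43 in mouse, a difference of 1.01 (limma adjusted p = 0.0149). These differences without the livers that stand apart were −0.98 (limma adjusted p = 2.48e-04) for CEACAM1 and 0.86 (limma adjusted p = 0.0160) for CCND1. The p-values of these differences come from the joint fit, which assumed equal spread in both sets, and may be too small. TRIB3, an inhibitor of AKT, fell by 0.62 on the log2 scale in humanized livers (limma adjusted p = 0.301), and by 0.89 without the livers that stand apart (limma adjusted p = 0.0476), and Ide, which encodes the insulin-degrading enzyme, fell by 0.40 in WT livers (limma adjusted p = 0.160).

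Of the lipogenic genes that insulin induces, SCD fell from 571 ± 169 to 259 ± 20.3 TPM (SD, n = 4 each) in humanized livers without overlap (log2 fold change −1.08, limma adjusted p = 0.0977). FASN rose there from 55.4 ± 16.2 to 80.8 ± 10.5 TPM (log2 fold change 0.57, limma adjusted p = 0.335), so that genes of this list moved both ways. In the 6 other livers the log2 fold change was −1.36 for SCD (limma adjusted p = 0.0114) and 0.50 for FASN, which was no longer called. In WT livers Acly, which makes cytosolic acetyl-CoA, rose from 68.4 ± 6.59 to 101 ± 20.9 TPM (SD, n = 6 each; log2 fold change 0.54, limma adjusted p = 0.0818).

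The list of insulin-repressed FOXO targets also holds genes of FOXO and other forkhead factors themselves. Of its 14 genes tested in WT livers, 3 were called, all higher: the gluconeogenic enzymes G6pc and Pck1, and Irs2. That is 21.4% of the list, beside 16.0% of all mouse genes called and 9.09% called higher, with a list median of 0.08 against 0.03. G6pc was 246 to 740 TPM with HuR KD and 242 to 372 TPM with LacZ (log2 fold change 0.79, limma adjusted p = 0.12), and Pck1 was 2846 to 3806 and 2430 to 2890 TPM (log2 fold change 0.29, limma adjusted p = 0.134). In humanized livers 1 of 14 tested genes of this list was called, beside 11.5% of all human genes. It was ANGPTL4, an inhibitor of lipoprotein lipase, at 23.5 to 53.0 TPM with HuR KD and 9.87 to 20.97 TPM with LacZ (log2 fold change 0.97, limma adjusted p = 0.251, and 1.24 without the livers that stand apart).

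The counts that follow stand beside 11.5% of all human and 16.0% of all mouse genes called. In the growth hormone lists 1 of 11 human genes of receptor signalling was called, JAK2, with a log2 fold change of −0.49 (limma adjusted p = 0.423), and 3 of 13 mouse genes, 1 higher and 2 lower. Of the growth hormone and STAT5 targets 2 of 12 human genes were called, IGF1 higher and CYP7B1, an oxysterol hydroxylase, lower, from 12.1 ± 0.791 to 8.95 ± 1.94 TPM (SD, n = 4 each). In WT livers 2 of 17 were called, with Cyp8b1, the sterol 12-hydroxylase, higher by 0.42 (limma adjusted p = 0.072) and Elovl3, a fatty acid elongase, with a log2 fold change of −0.61 (limma adjusted p = 0.242). The log2 fold change of CYP7B1 was −0.42, and −0.56 without the livers that stand apart. HTRA1, a protease that cleaves IGF-binding proteins, was lower in humanized livers (log2 fold change −0.83, limma adjusted p = 0.391, and −1.11 without those livers), and in the list of IGF ligands, carriers and receptors it and IGF1 were the 2 of 8 human genes called, with Igf2r, higher, the 1 of 11 mouse genes. In the list of insulin receptor, substrates and PI3K-AKT, 1 of 19 human genes was called, GSK3A, higher, and 3 of 20 mouse genes, Irs1, Irs2 and Rptor. Rptor, the mTORC1 subunit, was higher in WT livers (log2 fold change 0.30, limma adjusted p = 0.0957).

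**Figure D5:**
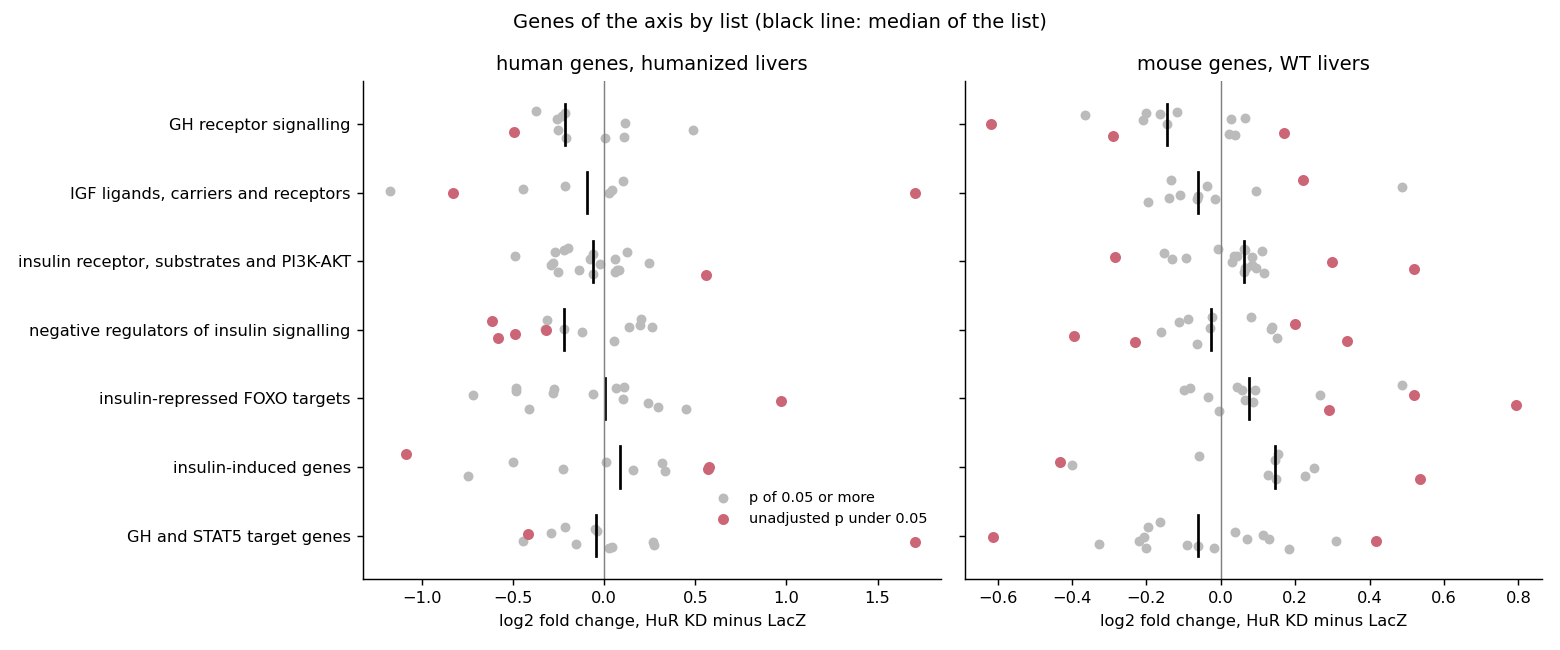
Log2 fold change, HuR KD minus LacZ, of every tested gene of the 7 lists in humanized (left) and WT livers (right); red points have an unadjusted limma p under 0.05, grey points do not, and black lines are list medians. List medians lie between −0.22 and 0.15, and IGF1 at 1.70 is the rightmost human point.

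The genes whose level varied most like a called member were sought over all genes averaging 5 TPM or more, after the group means were removed, as a description. For IGF1 across the 8 humanized livers these were APOF, an apolipoprotein (r = 0.99), CYP17A1, a steroid hydroxylase (r = 0.97), and AC074250.1 (r = 0.97). Without the livers that stand apart they were IYD, MAN2A1 and AL135905.1, so the likeness of the first 3 involves those livers. For Irs1 across the 12 WT livers they were Mlxipl, the carbohydrate-response factor ChREBP (r = 0.97), Pan2, a deadenylase subunit (r = 0.94), and Snrk, a kinase (r = 0.94), and Mlxipl and Pan2 remained the first 2 without LacZ 2. For Irs2 they were Gm13436 (r = 0.86), Tmem219, a receptor of IGFBP3 (r = 0.85), and Habp4 (r = 0.83). Without LacZ 2 they were Lncpint (r = 0.93), Gm13436 (r = 0.90) and Polr3gl (r = 0.90). Tmem219 and Habp4 were then no longer among the first 3.

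Markers of cell types were counted beside these results. All 10 hepatocyte markers were listed in humanized livers, summing to 42359 to 70852 TPM with HuR KD and 45445 to 92811 TPM with LacZ, and 1 was called, higher. Human macrophage, endothelial and B cell markers summed to at most 3.59 TPM in any humanized liver, and 6 of the 11 macrophage markers listed were at 0 in all 8. Human cholangiocyte markers summed to 6.02 to 40.0 TPM with HuR KD and 14.8 to 61.4 TPM with LacZ, with 2 of 6 tested lower. Human stellate cell and fibroblast markers summed to 4.76 to 10.9 TPM with HuR KD and 7.98 to 12.5 TPM with LacZ, with 1 of 4 tested lower, and T and NK cell markers to at most 5.06 TPM. In the 6 livers other than those that stand apart, 4 of 6 cholangiocyte markers were lower, at sums of 6.02 to 10.4 TPM with HuR KD and 14.8 to 61.4 TPM with LacZ, and 1 hepatocyte marker was higher and 1 lower. In WT livers 0 of 8 hepatocyte markers tested were called, while 5 of 11 Kupffer cell and macrophage markers were lower, summing to 361 to 713 TPM with HuR KD and 526 to 718 TPM with LacZ. Lower calls in WT livers also fell on 3 of 11 stellate cell and 2 of 7 T and NK cell markers. Over all genes tested, 6.94% were called lower in WT livers. In humanized livers 7.87% were called lower and 3.60% higher, and 15.7% were called in either direction without the livers that stand apart. The part of these cells in the results for IGF1, GHR, IGFALS, Irs1 and Irs2 was not tested.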

How the data were processed

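Total RNA from 20 livers was sequenced in strand-specific libraries. Per the labels and the study's methods, the authors trimmed reads, aligned them with HISAT2 to the mouse genome (WT) or to a combined human and mouse index (humanized), counted genes with featureCounts (Subread) and deposited TPM values. The submitters' processing notes name Trim Galore and the builds mm10 and GRCh38. Only human genes were used from the humanized set.

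Each set was fitted apart with limma 3.58.1 in R 4.3.3 on log2(TPM + 1), with trend, restricted to genes averaging 1 TPM or more. Genes were called at an unadjusted p under 0.05, the study's rule, with Benjamini-Hochberg adjusted p beside it. A fold change on this scale understates the change of low genes. Mice were separate animals, so p-values measure the spread between livers. The design compared 4 with 4 humanized and 6 with 6 WT livers, and a joint fit tested the difference between species. That joint fit assumed the same spread between livers in both sets. Single members were also tested by exact permutation. Python 3.11.15, numpy 2.4.6, pandas 2.3.3, scipy 1.17.1 and matplotlib 3.10.9 were used for the rest. Whole reads were recovered from the TPM steps for 99.99% of the 18702 human genes and 100% of the 25110 mouse genes listed above 0 in at least 4 livers, and voom on them was an alternative. The separate fits of each set were tested on simulated data, and the joint fit was not.

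Named were all 10 members, up to 8 other list genes per set with the smallest p, the 3 genes most alike to each called member, and ELAVL1. Members and lists were chosen with earlier results of these data known. Replicate numbers were checked for pairing: deviations of livers with the same number correlated at −0.25 to 0.14 (humanized) and −0.14 to 0.21 (WT). The control with the same number was the most alike for humanized HuR KD 1 and for WT HuR KD 1 and 5. Such correlations cannot show whether livers with the same number were handled together. No pairing was assumed, and the replicate block is given as an alternative. Human sequences were not analysed here. Some list genes are counted but not reported here by name.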

Additional observations from a re-analysis of the deposited data

Results flagged for a closer look

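Of 40 groups of values examined for a liver far from the rest, 5 held one, where chance gives about 1 in 20 groups, or 2. In humanized HuR KD 4, IGFBP1 was 457 TPM (38.8 to 55.8 in the other 3 HuR KD livers), IRS1 13.9 TPM (6.52 to 6.89) and IRS2 9.36 TPM (1.57 to 1.84). In humanized LacZ 2, IGFBP1 was 381 TPM (24.0 to 80.0 in the other 3 controls). Both are the livers with the deepest libraries and the highest share of mitochondrial rRNA, and the part of depth and RNA makeup in these values was not tested. In WT HuR KD 6, Igfbp4 was 866 TPM, with 587 to 668 TPM in the other 5 HuR KD livers.

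The effect of HuR KD on IGF1 differed between the sets by 1.90 on the log2 scale (limma adjusted p = 0.00249), with 1.70 in human and −0.20 in mouse. Host, shRNA and species cannot be told apart in that difference. The joint fit assumed equal spread in both sets, so its p-value may be too small.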

How the results depend on the processing

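In humanized livers 1 member was called, 2 with array weights or a term for the livers that stand apart, 4 without those livers and 0 after adjustment, and 1 to 3 with any 1 liver left out. In WT livers 2 were called, 4 with array weights (27.9% of all genes against 16.0%; Ghr, Igf1 and Igfbp4 joined Irs2 and Irs1 was lost), 3 with median-of-ratios factors, quantile normalization or voom, where Ghr joined, 0 after adjustment and 0 to 3 with any 1 liver left out. For the difference between species 1 was called, 3 without the livers that stand apart, 2 with a term for them and 1 to 2 with any 1 liver left out. The treatment of the livers that stand apart was chosen after seeing the data. With the replicate block 1, 3 and 1 members were called: Igfbp1 joined in WT livers (log2 fold change 0.49). INSR turned from −0.06 to 0.016 with median-of-ratios factors, 0.026 over protein-coding genes and 0.040 with voom in humanized livers, and its difference between species to 0.017 with voom. With any 1 liver left out, log2 fold changes crossed 0 in humanized livers for IGFBP1 (−0.70 to 0.85), IGFBP2 (−0.44 to 0.089), IGFBP4 (−0.13 to 0.24), INSR (−0.20 to 0.0076) and IRS2 (−0.76 to 0.065), in WT livers for Igfals (−0.13 to 0.046) and Igfbp2 (−0.18 to 0.072), and between species for IGFBP1 (−1.18 to 0.37), IGFBP2 (−0.40 to 0.13) and IGFBP4 (−0.067 to 0.31). Members with every humanized control below every WT control numbered 6, and 6 to 8 with any 1 control left out. The cause of these changes was not tested. Low read numbers limit human SOCS2 (0 to 13 reads per liver), IRS2 (20 to 847), IGFALS (37 to 443) and IGF1 (63 to 850).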
